A study of Homo sapiens with 15 samples.

Results

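Dedifferentiated adipocytes (DED, 5 arrays) were compared with the undifferentiated stem cells from which they derive (MSC, 5 arrays), so that 10 of the 15 arrays of the series enter the comparison and the other 5, of mature adipocytes (MA), are given beside them as adipocytes kept without the conditioned medium. The groups were taken from the sample titles, and all 17687 genes with a symbol were compared. The cells are ASC52, a line of human mesenchymal stem cells from adipose tissue made immortal with telomerase reverse transcriptase (hTERT), which all 15 arrays share. DED and MA cells were differentiated to fat cells for 14 days, starting on day 3 after seeding. They then spent 7 days in RPMI with 10% fetal bovine serum, which for DED had been conditioned by breast carcinoma cells of the line MDA-MB-231, and for MA had not. The labels do not state the medium of the MSC cells or when they were harvested. DED therefore differed from MSC in the differentiation itself, in the conditioned medium and possibly in the base medium and the time in culture. Between DED and MSC these cannot be told apart. By the labels, DED differed from MA only in the conditioning of the last medium. The question put to this comparison here is whether dedifferentiated cells return to the stem cell state or take a state of their own. Only 1 line was used and the labels name no separate cultures for the 5 arrays of a group, so the p-values reflect only how far these samples vary, which may be technical.

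Adipose stem cells are fibroblast-like progenitors that divide, lay down collagen and other matrix, and can become fat, bone or cartilage cells. In adipogenesis they leave the cell cycle, and the nuclear receptor PPARG with its partners switches on the genes for lipid uptake, triglyceride storage and secreted adipokines. Fat cells exposed to tumour cells are known to lose lipid and fat cell markers and to take on fibroblast-like and inflammatory features, and are then often called cancer-associated adipocytes.

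Values are log2 intensities, so that a difference of 1 is a fold of 2, and group values are means ± SD over 5 arrays. Of the 612 negative control probe sets the median was 4.80 and the 95th percentile 8.31, and values under that percentile are called dim here. A gene passed the test if it had a limma adjusted p under 0.05, and "rose" and "fell" refer to DED relative to MSC. Where 1 group is dim, as for 97 of the 270 genes described, the size of a difference depends on the background. Another 51 were dim in both groups by their means. This is said or shown by values beside the gene, with the exceptions named here. The exceptions are ADAMTS9, AKR1B10, ANKRD1, CCIN, CD14, COL21A1, CTSS, DUSP1, EMCN, ERO1B, FGF5 and GDF15. Further exceptions are HAPLN1, HMMR, HSD17B2, ID1, LMOD1, MVK, PMVK, PTH1R, RRM2 and XAF1. The 5 DED arrays varied more than those of the other groups, and arrays 1 and 3 stood apart. Array 1 was the highest of the 5 in the mean of the adipocyte markers, and array 3 the highest in amino acid stress and contractile genes. Among MSC arrays, array 2 was the one most often apart. The call of a named gene without 1 array is given where it changed, and a count without 1 array where it moved by over 1.5 times. Among DED arrays the root mean square log2 difference between pairs ran from 0.293 to 0.545, with the highest between arrays 1 and 3, against 0.299 to 0.353 among MSC arrays and 0.320 to 0.362 among MA arrays.

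DED cells lay farther from the stem cells than from the adipocytes kept without conditioned medium. Over all genes the root mean square difference between group means was 0.839 for DED and MSC, 0.566 for DED and MA, and 0.809 for MA and MSC, on the log2 scale. Without DED arrays 1 and 3 the first was 0.849 and the second 0.578. Between single arrays, the 25 pairs of DED and MSC ran from 0.871 to 0.952 and the 25 pairs of DED and MA from 0.573 to 0.754, so the ranges did not overlap. RMA sets all arrays to a common distribution, so a shift shared by all genes would not show in these values.

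**Figure D1:**
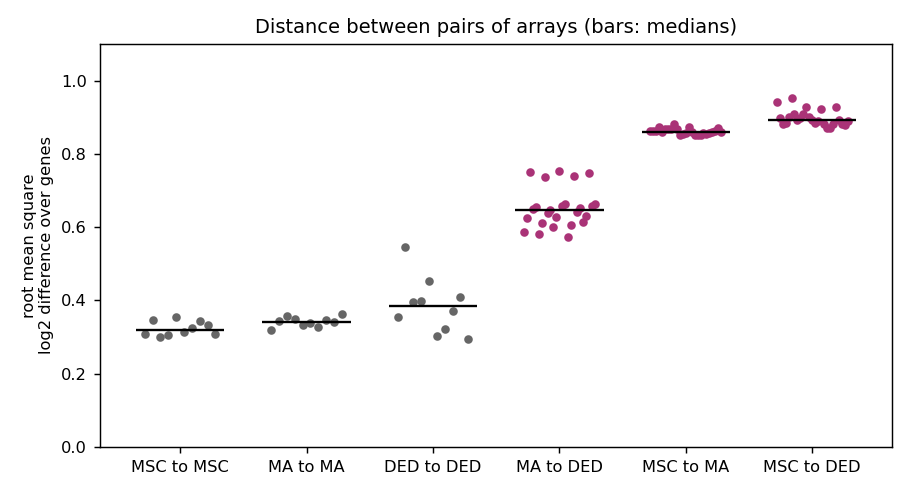
Root mean square log2 difference over 17687 genes (y axis) for every pair of arrays, grouped by the groups of the pair (x axis); each point is a pair and each bar the median of its column. The 25 DED to MSC pairs, with a median of 0.892, lie above the 25 MA to DED pairs, with a median of 0.647, and above the pairs within each group.

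Between DED and MSC 5914 of 17687 genes passed the test (33.4%), of which 3022 were higher in DED (17.1%) and 2892 lower (16.4%). Without MSC array 2 the count was 5475, without DED array 1 it was 5720, without DED array 3 it was 5949 and without DED arrays 1 and 3 it was 5584. With a fold of 2 or more 1883 genes passed (10.6%), 878 higher (4.96%) and 1005 lower (5.68%). The DED and MSC arrays did not overlap for 4442 genes (25.1%), 2189 of them higher in DED (12.4%) and 2253 lower (12.7%). Among all genes the median difference was 0.03, and differences ran from -8.88 to 11.30. At 4 or more on the log2 scale there were 71 rises and 63 falls. For 8017 genes (45.3%) the 95% interval of the difference lay within 0.5 either side of 0, and many of these are dim genes that were not measured above background in either group. Of the 10839 genes dim in both groups 2020 passed, and of the 6848 others 3894 passed. Counts in the lists below are to be read beside the 33.4% of all genes that passed. Several of these lists hold many genes dim in both groups. Such genes made up 12 of 14 thermogenic, 11 of 15 cartilage, 7 of 10 osteoblast and 13 of 25 collagen genes. Dim in both groups were also 15 of 26 interferon-stimulated, 13 of 21 prostaglandin, 12 of 18 hyaluronan and 17 of 32 Wnt pathway genes. So were 19 of 30 EGF family and stromal growth factor, 12 of 23 AP-1 and immediate early and 12 of 24 steroid metabolism genes. The same test called 33.0% of genes between MA and MSC and 25.9% between DED and MA. These comparisons share arrays with the first, so their values are set side by side below and no overlap between them is counted.

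**Figure D2:**
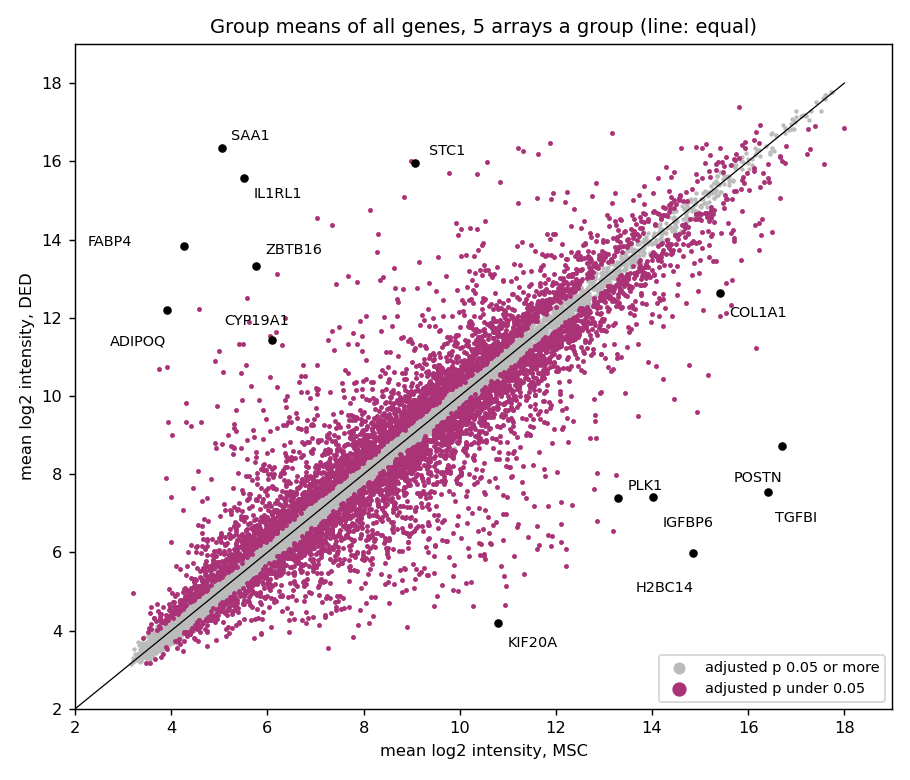
Mean log2 intensity of each gene in MSC (x axis) and in DED (y axis), 5 arrays a group; coloured points had an adjusted p under 0.05, grey points did not, the line marks equal means and 14 genes are named. SAA1 and IL1RL1 lie farthest above the line, and TGFBI and H2BC14 farthest below it.

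The 15 largest rises among genes whose arrays did not overlap were led by SAA1, an acute phase protein, at 5.06, 4.67, 5.95, 4.61 and 4.97 in the MSC arrays, 12.45 to 12.95 in MA and 16.51, 16.47, 15.80, 16.31 and 16.66 in DED. It rose from background to among the brightest genes, by 11.30 (SE 0.21, adjusted p = 6e-19). IL1RL1, the receptor of interleukin 33, was at 5.57, 5.41, 5.58, 5.61 and 5.37 in MSC, 9.70 to 10.54 in MA and 15.82, 15.33, 15.62, 15.33 and 15.75 in DED, a rise of 10.06 (SE 0.15, adjusted p = 4.4e-20). FABP4 and ADIPOQ, fat cell genes described below, came next, and CIDEC, also described below, was among the 15. Other rises of this group were A2M, a protease inhibitor of plasma (7.65), ZBTB16, a zinc finger transcription factor (7.58), CPM, a membrane carboxypeptidase (7.53), GPX3, a secreted glutathione peroxidase (7.02), NRCAM, a cell adhesion molecule first studied in neurons (7.02), C7, a complement component (6.94), FMO1, a flavin monooxygenase (6.93), STC1, a secreted glycoprotein (6.91), FOXO1, a transcription factor held in check by insulin (6.84), and CHRDL1, a BMP antagonist (6.63). All 15 were higher in MA than in MSC as well. In MSC 13 of the 15 were dim and 5 of these under the control median, so the sizes of these rises and their order depend on the background.

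The 15 largest falls, of which 14 ended dim in DED and so have sizes and an order that depend on the background, were led by H2BC14 and TGFBI. H2BC14, a replication-dependent histone, was at 14.69 to 15.01 in MSC and 6.87, 6.71, 5.22, 5.76 and 5.34 in DED and fell by 8.88 (SE 0.24, adjusted p = 3.9e-16). TGFBI, a secreted matrix protein induced by TGF-beta, was at 16.38 to 16.46 in MSC and 7.48, 7.03, 8.66, 7.15 and 7.34 in DED, a fall of 8.87 (SE 0.21, adjusted p = 3.5e-17). Both went from among the brightest genes to dim by their means, with no overlap between groups. Others of this group were TNFRSF9, a receptor of the TNF family, KCNMA1, a calcium-activated potassium channel, IL13RA2, a decoy receptor of interleukin 13, PRG4, the lubricant protein lubricin, and NRG1, a ligand of the ERBB receptors, which fell by 6.64, 5.89, 5.81, 6.56 and 5.74. DED array 3 was the highest of the DED arrays for TNFRSF9 and KCNMA1, at 9.01 and 7.23 against 12.91 to 13.50 and 10.60 to 11.95 in MSC.

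The fat cell programme was lower in DED than in MA but remained far above the stem cell level. Of 21 measured adipocyte markers 16 rose and the other 5 did not pass, with a median difference of 2.04 against 0.03 over all genes. By their means 10 of the 21 were dim in both DED and MSC. The mean over the list was 5.77 to 5.96 in the MSC arrays, 10.41 to 10.51 in MA and 9.48, 8.69, 8.40, 8.49 and 8.63 in DED arrays 1 to 5, so every DED array lay between the other groups. In bulk samples fewer cells of a type and less RNA per cell cannot be told apart, and whether the DED values come from some or all of the cells was not measured.

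ADIPOQ encodes adiponectin, the main fat cell hormone. It was at 4.49, 3.84, 3.78, 3.96 and 3.50 in MSC, under the median of the negative controls, at 15.03 to 15.23 in MA, and at 13.89, 12.37, 11.24, 11.51 and 11.94 in DED, a difference from MSC of 8.28 (SE 0.33, adjusted p = 6.2e-14). DED array 1 was the highest of the 5. The fatty acid carrier FABP4 was at 3.90 to 4.73 in MSC and 14.75, 13.86, 13.27, 13.42 and 13.87 in DED, a rise of 9.58 (SE 0.21, adjusted p = 1.5e-17), and MA stood at 15.27 to 15.61. PLIN1, which coats fat droplets and gates lipolysis, was at 3.83 to 5.58 in MSC, 10.90, 9.37, 8.77, 8.89 and 8.76 in DED and 11.89 to 12.33 in MA. Each of these genes had the same order of groups, with no overlap. The droplet protein CIDEC rose by 6.91, the glycerol phosphate dehydrogenase GPD1 by 5.01, the complement protease adipsin CFD by 2.53 and the lipoprotein lipase LPL, still dim, by 0.95. LEP, the gene of leptin, was at 7.36, 6.69, 8.83, 6.86 and 7.24 in DED, 6.51 to 7.0 in MA and 4.51 to 5.0 in MSC, with DED array 3 the highest and a rise of 2.64 (SE 0.27, adjusted p = 1.2e-07). Leptin was dim in 4 of the 5 DED arrays.

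**Figure D3:**
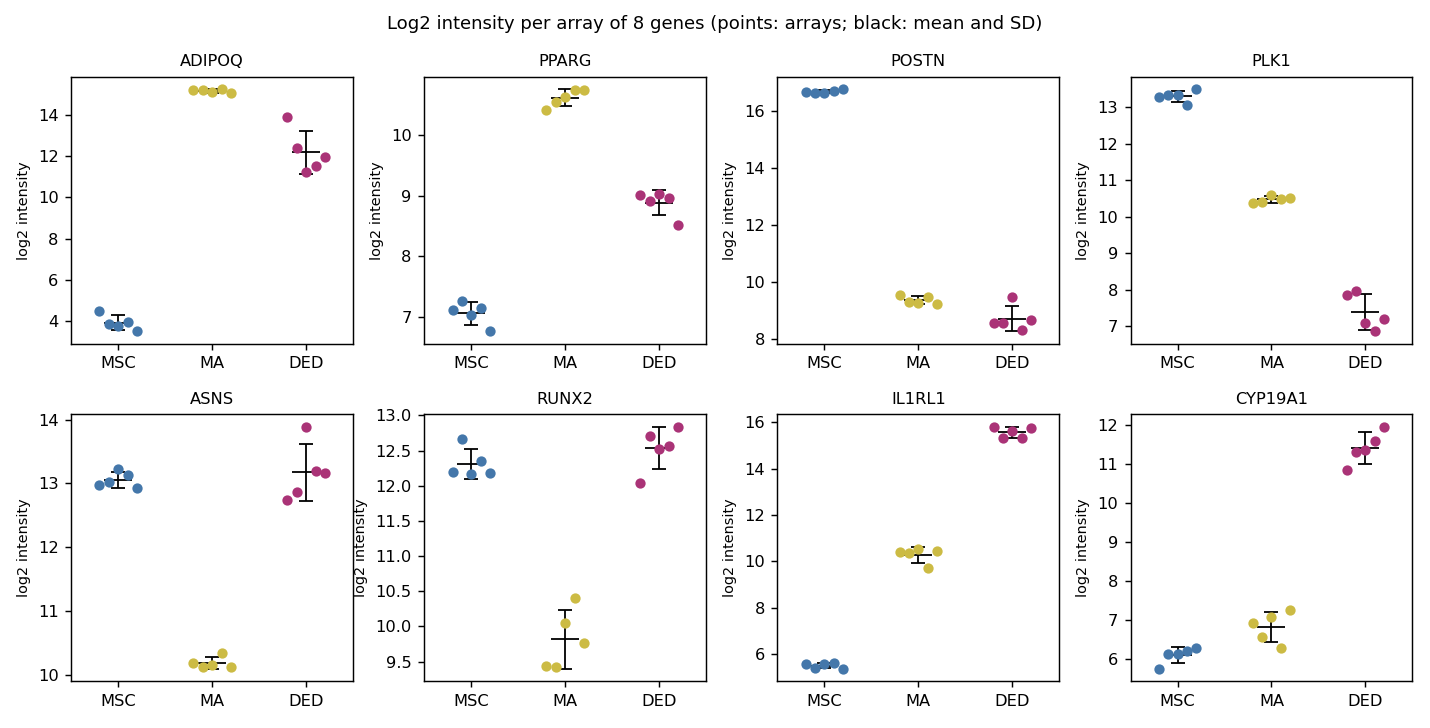
Log2 intensity (y axis) of 8 genes in the 5 arrays of MSC, MA and DED (x axis); points are arrays and black marks the mean and SD. ADIPOQ and PPARG lie between the other groups in DED, POSTN and PLK1 are far below MSC, ASNS and RUNX2 are at the MSC level, and IL1RL1 and CYP19A1 are above both groups.

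Among 19 adipogenic transcription factors 13 rose and 1 fell (median 0.70). PPARG, the master regulator of fat cells, was at 7.11, 7.26, 7.03, 7.15 and 6.76 in MSC, 10.41 to 10.75 in MA and 9.01, 8.91, 9.03, 8.96 and 8.52 in DED, and the rise was 1.82 (SE 0.12, adjusted p = 2.3e-10). The 5 DED arrays were close to one another and stood between the groups. CEBPA, its partner, was dim in all groups, at 5.30 ± 0.15 in MSC and 5.43 ± 0.20 in DED, a difference of 0.12 (SE 0.13, adjusted p = 0.53). ZBTB16, which is induced by glucocorticoids early in adipogenesis, was at 5.44 to 6.04 in MSC, 13.36 to 13.68 in MA and 13.15 to 13.47 in DED. FOXO1 was at 3.39 to 5.18, 10.69 to 10.99 and 10.51 to 11.22 in the same order, and KLF15, a Kruppel-like factor of fat and liver, rose by 3.38. The member that fell was the glucocorticoid receptor NR3C1, by 0.90 (SE 0.13, adjusted p = 8.6e-06).

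Lipid synthesis followed the markers. All 16 measured genes of fatty acid and triglyceride synthesis were above background in DED or MSC, 13 rose and 3 did not pass (median 1.53, and 3.23 between MA and MSC), and 1 fell without DED array 1. The acetyl-CoA carboxylase ACACB rose by 5.49 (SE 0.22, adjusted p = 7.1e-14) and the acyl-CoA ligase ACSL1 by 5.41 (SE 0.17, adjusted p = 2e-15). ACSL1 was at 14.15, 13.95, 13.02, 13.57 and 13.72 in DED and 14.01 to 14.24 in MA. Of 12 lipid droplet proteins 6 rose and 2 fell (median 0.44). PLIN2, the coat of small droplets in most cell types, was at 9.58 to 10.18 in MSC and 14.72, 14.12, 14.65, 14.21 and 14.42 in DED, a rise of 4.51 (SE 0.14, adjusted p = 2e-15), while PLIN3 and BSCL2, the seipin gene, fell by 0.93 and 0.82.

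The breakdown side was closer to the stem cells. Of 20 genes of lipolysis and fatty acid oxidation 7 rose and 2 fell, with a median of 0.15 against 1.03 between MA and MSC. By their means 11 of the 20 were dim in both DED and MSC, so the median rests in part on background. The hormone-sensitive lipase LIPE rose by 2.56, the triglyceride lipase PNPLA2 by 2.03 and the pyruvate dehydrogenase kinase PDK4 by 2.15, all 3 dim by their means in both groups, while the monoglyceride lipase MGLL, at 9.33, 9.39, 10.12, 9.53 and 9.29 in DED, 11.70 to 11.95 in MA and 10.35 to 10.88 in MSC, fell by 1.18 (SE 0.15, adjusted p = 1.6e-06). MGLL thus lay below both other groups in all 5 arrays. Only this fall passed without MSC array 2, DED array 3 or DED array 4. Among 17 genes of cholesterol synthesis and uptake 2 rose and 7 fell (median -0.24). The isomerase IDI1 rose by 0.83, and it was the 1 rise left without any 1 of MSC arrays 2 to 5 or DED arrays 1, 2, 3 and 5. EBP, MVK and PMVK fell by 1.15, 1.12 and 1.22.

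Subunits of oxidative phosphorylation differed by small amounts, and the share of them that passed was near the 33.4% of all genes. Of 20 subunits of oxidative phosphorylation 3 rose and 4 fell, each by less than a fold of 2, with a median of -0.05, and -0.09 to -0.04 with any 1 array left out against 0.39 between MA and MSC. The largest fall was of NDUFB8, a complex I subunit, by 0.93, and the largest rise of COX6C of complex IV, by 0.45. Of 19 glycolysis genes 3 rose and 7 fell (median -0.20). The phosphofructokinase PFKP and the pyruvate kinase PKM fell by 1.74 (SE 0.24, adjusted p = 7.7e-06) and 1.49 (SE 0.18, adjusted p = 1.5e-06), with DED array 3 the highest DED array in both. The glucose transporter SLC2A1 rose by 0.91 (adjusted p = 0.016, and 0.053 without MSC array 3), but was at 7.95, 8.54, 9.85, 9.03 and 8.69 in DED and 7.20 to 8.82 in MSC, so the groups overlapped. In insulin signalling 9 of 15 genes rose and 1 fell (median 0.71). PIK3R1, the regulatory subunit of phosphoinositide 3-kinase, rose by 4.24, and the insulin receptor substrate IRS2, at 5.94 to 6.82 in MSC, 7.79 to 7.93 in MA and 9.77, 9.52, 10.37, 10.15 and 10.13 in DED, by 3.59 (SE 0.16, adjusted p = 4.6e-13). IRS2 was higher in every DED array than in any other array. Among 14 thermogenic genes 2 rose and 1 fell (median -0.02, and -0.05 to 0.03 with any 1 array left out). PPARGC1A, a coactivator of mitochondrial genes, rose by 1.86 and ELOVL3 by 0.68 (4 rises without DED array 3), TMEM26 fell by 1.53, all 3 dim by their group means, and UCP1 was under the control median in both groups (adjusted p = 0.46).

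**Figure D4:**
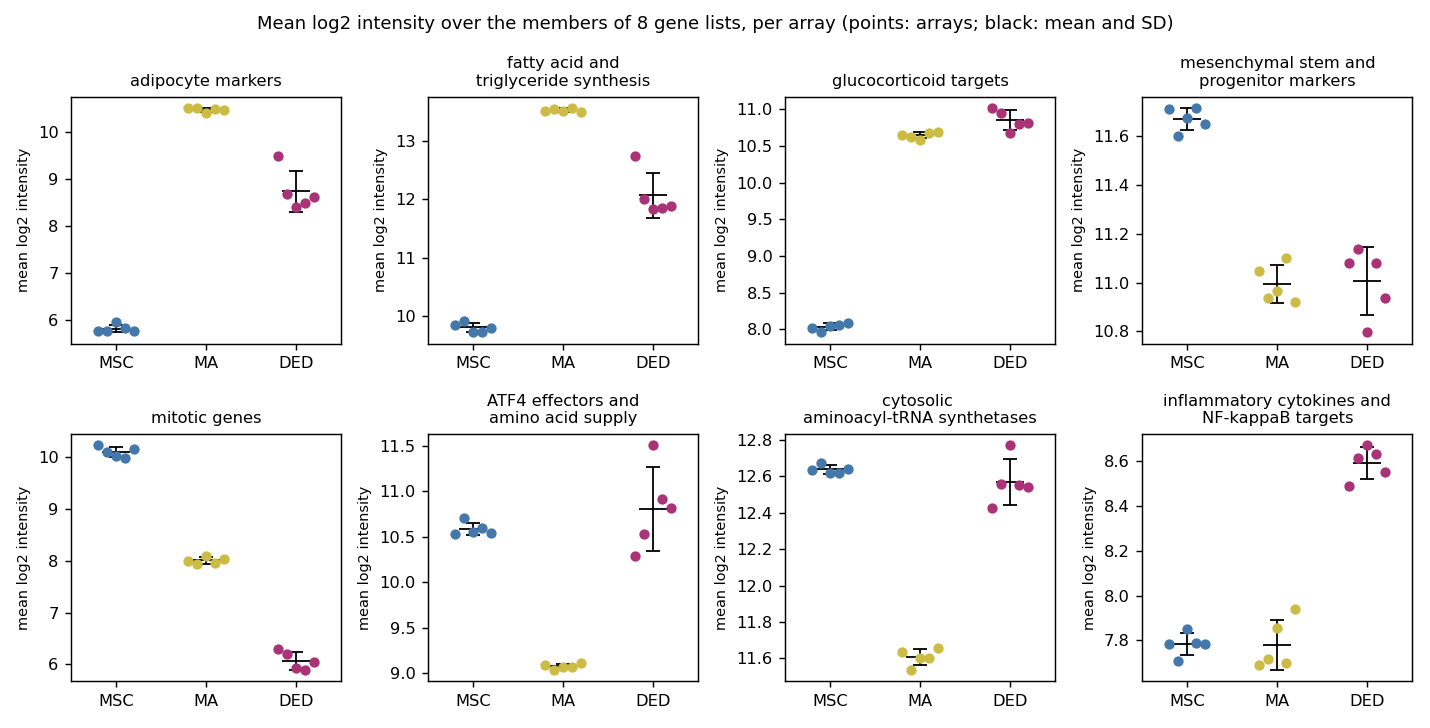
Mean log2 intensity (y axis) over the members of 8 gene lists in each array of MSC, MA and DED (x axis); points are arrays and black marks the mean and SD. Adipocyte markers and lipid synthesis lie between the other groups in DED, mitotic genes lie below both, and the ATF4 and synthetase lists lie near the MSC level with array 3 the highest.

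Cell division genes showed the most uniform change, and in the direction away from the stem cells. All 34 measured mitotic genes fell, 32 of them by a fold of 2 or more, with a median of -4.41, and in MA the median was -2.18 relative to MSC. Over the list the mean was 10 to 10.24 in MSC, 7.95 to 8.10 in MA and 5.90 to 6.30 in DED, so DED lay below the adipocytes as well. Such genes peak in dividing cells, where the MuvB complex and its partners bind an element called the cell cycle genes homology region (CHR) in their promoters, often beside CCAAT boxes bound by NF-Y. Promoter stretches with the CHR letters (TTTGAA or TTCGAA, read on both strands) are printed for the 5 named mitotic genes with the largest falls that hold them, because they carry the letters of this element. The sequences are from RefSeq on build GRCh38.p14, run 5′ to 3′ on the strand of the gene, and have every copy of the motif in capitals. The distance given is that of the copy nearest the start. ANLN and MKI67 hold a second copy 26 and 47 bases before the start, and DLGAP5 one outside its stretch, 138 bases before the start.
DLGAP5 (chr14:55191667-55191716, minus strand, motif 109 bases before the start): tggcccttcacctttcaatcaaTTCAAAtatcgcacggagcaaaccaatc
PLK1 (chr16:23678838-23678887, plus strand, motif 29 bases before the start): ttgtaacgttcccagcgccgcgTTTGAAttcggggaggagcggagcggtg
ANLN (chr7:36389820-36389861, plus strand, motif 20 bases before the start): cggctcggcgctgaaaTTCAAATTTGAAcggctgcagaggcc
MKI67 (chr10:128126425-128126474, minus strand, motif 29 bases before the start): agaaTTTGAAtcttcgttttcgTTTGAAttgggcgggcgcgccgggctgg
CDK1 (chr10:60778148-60778197, plus strand, motif 161 bases before the start): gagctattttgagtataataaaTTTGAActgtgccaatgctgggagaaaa

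The CHR letters were found in the 250 bases before the start of 15 of the 28 mitotic genes whose promoter was held (53.6%), against 14.6% of all 27305 promoters and 11.8% of the 14250 promoters of genes measured here. CCAAT, on either strand, was in 75%, 33.0% and 34.6% of the same sets, and both motifs in 46.4%, 5.24% and 4.65%; the motifs share no letters that would make one count as the other. A match of letters is a description and shows no binding.

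PLK1, a kinase of mitotic entry and spindle assembly, was at 13.28, 13.32, 13.32, 13.05 and 13.49 in MSC and 7.84, 7.97, 7.08, 6.85 and 7.18 in DED, and fell by 5.91 (SE 0.17, adjusted p = 7.8e-16). The spindle protein DLGAP5 was at 10.76 to 11.18 in MSC and 5.25, 4.82, 3.70, 4.99 and 4.48 in DED, and the kinesin KIF20A, needed for cytokinesis, at 10.56 to 10.99 and 5.0, 4.68, 3.68, 3.78 and 3.77. Both were near or under the control median in DED, so their falls of 6.30 and 6.60 depend on background. The cytokinesis scaffold ANLN fell by 5.28 (SE 0.12, adjusted p = 2.1e-17), the proliferation antigen MKI67 by 4.95 (SE 0.22, adjusted p = 4.2e-13), with MSC at 11.49 to 11.75 and DED at 5.82 to 7.29, and the mitotic kinase CDK1 by 4.15 (SE 0.15, adjusted p = 1.5e-14). MA stood between at 10.36 to 10.59 for PLK1, 8.98 to 9.77 for MKI67 and 7.73 to 8.66 for CDK1. No DED array reached the lowest MA array in any of these genes.

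DNA replication and histone genes fell too. Of 29 replication genes 25 fell and 4 did not pass (median -1.39), among them GINS1 of the replicative helicase by 3.89 (SE 0.10, adjusted p = 1e-16), the ribonucleotide reductase subunit RRM2 by 3.82 (SE 0.17, adjusted p = 2.1e-13) and the thymidylate synthase TYMS by 3.27 (SE 0.18, adjusted p = 6.3e-12). Of 34 replication-dependent histones 31 fell and 1 rose (median -1.83). H3C2 and H2BC13 fell by 6.04 and 5.50, and the histone that rose was H2BC5, by 0.68 (SE 0.16, adjusted p = 0.0018). Histone genes of one class are near-identical copies, so probe sets may share signal and single members are uncertain.

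Of 19 cell cycle inhibitors and exit genes 8 rose and 4 fell (median 0.41, and 0.08 to 0.48 with any 1 array left out). The CDK inhibitor p21, CDKN1A, was at 9.62, 8.95, 9.37, 9.31 and 9.16 in MSC, 10.31 to 10.57 in MA and 11.05, 11.07, 12.25, 11.17 and 10.80 in DED, and rose by 1.99 (SE 0.20, adjusted p = 8.7e-08). MDM2, the p53 ubiquitin ligase, rose by 1.52 (SE 0.19, adjusted p = 2.2e-06) and was at 8.98 to 9.42 in MA. Both were highest in DED array 3 and above all MSC and MA arrays in the others. The cyclin CCND3 rose by 1.45 and CCND1 fell by 0.72. RBL1, a pocket protein of the retinoblastoma family, fell by 1.32. TXNIP, a thioredoxin-binding protein induced by glucose, was at 14.06, 10.73, 12.24, 10.86 and 10.53 in DED, 14.48 to 14.85 in MA and 12.56 to 13.20 in MSC. DED array 1 was near MA, the other 4 were below MSC, and the difference was -1.31 (SE 0.45, adjusted p = 0.029). Its adjusted p lay between 0.052 and 0.094 without any 1 of MSC arrays 1, 3 and 5 and DED arrays 2, 4 and 5, and 2 falls of this list passed without MSC array 1, 3 or 5.

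Most stem cell surface markers were lower than in the stem cells. Of 18 mesenchymal stem and progenitor markers 11 fell and 3 rose (median -0.67, and -0.39 between MA and MSC). The mean over the list was 11.60 to 11.71 in MSC, 10.92 to 11.10 in MA and 10.80 to 11.14 in DED. The 3 antigens commonly used to define these cells stayed bright and lower than in MSC. THY1 (CD90) was at 13.72, 13.62, 13.48, 13.55 and 13.58 in MSC, 11.88 to 12.18 in MA and 13.39, 12.74, 12.78, 12.54 and 12.54 in DED, a fall of 0.79 (SE 0.14, adjusted p = 0.00012), so DED lay between the other groups. ENG (CD105) fell by 0.44 (SE 0.11, adjusted p = 0.0037), with MA at 11.47 to 11.89. NT5E (CD73) was at 13.64 to 14.03 in MSC, 13.66 to 14.03 in MA and 12.80 to 13.28 in DED, below both, and fell by 0.79 (SE 0.12, adjusted p = 2.1e-05).

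Markers of early adipose progenitors were far lower. PI16, a surface-linked peptidase inhibitor of such cells, was at 9.87, 8.53, 8.97, 9.08 and 8.80 in MSC, 4.86 to 5.22 in MA and 5.35, 5.15, 5.02, 4.94 and 4.96 in DED, a fall of 3.97 (SE 0.18, adjusted p = 4.4e-13) to the level of MA. DPP4 (CD26) was at 9.0 to 9.66 in MSC and 6.17, 7.61, 5.73, 7.44 and 6.53 in DED and fell by 2.65 (SE 0.28, adjusted p = 1.7e-07). No DED array reached the lowest MSC array in either gene. NES, an intermediate filament of progenitors, and CSPG4, the NG2 proteoglycan, fell by 1.89 and 1.15 and were dim in both groups. PDGFRA, the platelet-derived growth factor receptor of stromal progenitors, was at 14.69 to 15.10 in MSC, 15.91 to 16.32 in MA and 16.61, 16.47, 15.79, 16.38 and 16.56 in DED and rose by 1.46 (SE 0.14, adjusted p = 6e-08). The adhesion molecule VCAM1 and the aminopeptidase ANPEP (CD13) rose by 1.11 and 0.38.

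Of 10 osteoblast markers 1 rose and 1 fell (median 0.08, and 0.00 to 0.19 with any 1 array left out). RUNX2, the master factor of bone lineage, was at 12.20, 12.67, 12.17, 12.35 and 12.18 in MSC, 9.42 to 10.40 in MA and 12.04, 12.71, 12.53, 12.57 and 12.84 in DED. Its DED and MSC arrays overlapped, and the difference was 0.22 (SE 0.18, adjusted p = 0.39), with a 95% interval of -0.16 to 0.60. ALPL, the tissue-nonspecific alkaline phosphatase, rose by 1.95 (SE 0.31, adjusted p = 3.3e-05) and was highest in DED array 3, at 9.93 against 7.64 to 8.20 in the other 4. SPARC, a collagen-binding protein, fell by 1.04 (SE 0.12, adjusted p = 4.6e-07) from among the brightest genes. Among 15 cartilage markers 4 rose and 8 fell (median -0.36). The proteoglycan ACAN, the matrix protein COMP and the collagen COL11A1 rose by 3.88, 3.47 and 2.77, whereas SOX9, the master factor of cartilage, dim in both groups, fell by 1.16, the link protein HAPLN1 by 2.06 and COL2A1 by 1.22.

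Matrix genes changed in both directions. Of 25 collagens 7 rose and 14 fell (median -0.30). COL1A1, a chain of the main fibrillar collagen, was at 15.60, 15.37, 15.19, 15.49 and 15.41 in MSC, 13.25 to 13.35 in MA and 12.89, 12.52, 12.78, 12.28 and 12.64 in DED, a fall of 2.79 (SE 0.12, adjusted p = 1.2e-13). COL14A1, which binds collagen fibrils, was at 11.27 to 12.64 in MSC, 7.84 to 8.26 in MA and 5.62 to 6.56 in DED, and COL6A3 fell by 1.81. COL15A1, a collagen next to basement membranes, was at 6.91 to 8.47 in MSC, 10.44 to 10.81 in MA and 11.55, 12.20, 11.95, 12.01 and 11.92 in DED and rose by 4.0 (SE 0.21, adjusted p = 3.5e-12). COL21A1 and COL8A1 rose by 3.52 and 1.94. In these 3 rising genes every DED array was above every MA array.

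Of 37 matrix glycoproteins and crosslinking enzymes 13 rose and 18 fell (median -0.31). POSTN, periostin, a matrix protein of growing and healing tissue, was at 16.69, 16.64, 16.64, 16.72 and 16.78 in MSC, 9.24 to 9.53 in MA and 8.56, 8.57, 9.48, 8.30 and 8.65 in DED, a fall of 7.98 (SE 0.16, adjusted p = 2.3e-18). ASPN, a small leucine-rich proteoglycan, fell by 5.83, the collagen crosslinking enzyme LOX by 1.88 and the collagen hydroxylase P4HA1 by 1.26. FBN2, a fibrillin, was at 5.75 to 6.88 in MSC, 8.18 to 8.63 in MA and 12.28, 12.52, 11.32, 11.88 and 12.01 in DED and rose by 5.63 (SE 0.20, adjusted p = 1.3e-14). The proteoglycan FMOD rose by 2.54 and the laminin chain LAMA2 by 2.49. FN1, fibronectin, was at 16.71 to 16.74 in MSC and 16.86 to 16.96 in DED, a difference of 0.20 (SE 0.08, adjusted p = 0.072) that did not pass although the arrays did not overlap. It passed with quantile normalization (adjusted p = 0.024), with array weights (0.046) and with an intensity trend and robust fit (0.0018). It also passed with genes under the 25th percentile of mean intensity left out (adjusted p = 0.047).

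Of 30 proteases of the matrix and their inhibitors 9 rose and 14 fell (median -0.27). The metalloprotease ADAM12 was at 14.39 to 14.57 in MSC, 8.78 to 9.63 in MA and 9.98, 10.01, 9.63, 9.86 and 10.15 in DED and fell by 4.53 (SE 0.15, adjusted p = 2.9e-15), and ADAM19 fell by 2.49. ADAMTS5, an aggrecanase, rose by 3.79, ADAMTS9 by 2.82 and the metalloprotease inhibitor TIMP4 by 3.36. CTSK, a collagen-degrading cathepsin, was at 11.88, 11.54, 8.46, 10.47 and 11.10 in DED and 12.83 to 13.45 in MSC, a fall of 2.5 (SE 0.41, adjusted p = 5.7e-05), and array 3 was the lowest.

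Contractile genes depended on the array. Of 24 contractile and SRF or YAP target genes 7 rose and 8 fell (median 0.01, and -0.04 to 0.09 with any 1 array left out), and the list mean was 10.41 to 10.78 in MSC, 10.10 to 10.18 in MA and 10.40, 10.36, 11.10, 10.52 and 10.39 in DED arrays 1 to 5. ACTA2, smooth muscle actin, was at 12.10, 11.91, 14.70, 12.34 and 12.04 in DED and 11.89 to 12.60 in MSC, a difference of 0.47 (SE 0.36, adjusted p = 0.37). Array 3 was far above the rest, which lay within the MSC range. Without MSC array 2 there were 5 falls in place of 8. TPM1, CNN1 and TAGLN, a tropomyosin, a calponin and transgelin of the actin cytoskeleton, fell by 3.05 (SE 0.30, adjusted p = 6.6e-08), 1.75 (SE 0.29, adjusted p = 7e-05) and 1.26 (SE 0.29, adjusted p = 0.0017). In array 3 they were at 12.44, 9.23 and 15.39, the highest of the DED arrays. The YAP targets CCN1, CCN2 and ANKRD1, the first 2 of them matricellular proteins, rose by 2.41, 1.69 and 1.77. CCN1 was at 12.01, 11.90, 11.95, 11.46 and 11.56 in DED, above all MSC (8.72 to 9.73) and MA (10.14 to 10.52) arrays.

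In the TGF-beta, activin and BMP pathway 11 of 32 genes rose and 10 fell (median 0.01, and -0.01 to 0.03 with any 1 array left out). Among ligands TGFB3 fell by 2.53 (SE 0.17, adjusted p = 1.7e-10). Among receptors TGFBR1, the type I receptor of TGF-beta, was at 8.33 to 8.74 in MSC, 7.94 to 8.57 in MA and 10.33, 10.67, 10.74, 10.52 and 10.72 in DED and rose by 2.16 (SE 0.13, adjusted p = 4.2e-11), and the activin receptor ACVR2A rose by 1.34. The activin-binding protein FSTL3 rose by 1.45. Among targets of BMP signalling, ID1 was at 6.46 to 8.31 in MSC and 3.05 to 3.93 in DED, and ID3 at 10 to 10.85 and 7.08 to 8.26, falls of 3.71 and 2.52. ID1 was under the control median in DED.

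In the Wnt pathway 11 of 32 genes rose and 5 fell (median 0.20). LGR4, a receptor of R-spondins that strengthens Wnt signals, was at 10.62 to 11.62 in MSC, 5.43 to 6.24 in MA and 5.29 to 6.17 in DED, a fall of 5.21 (SE 0.20, adjusted p = 2.7e-14). Of the Frizzled receptors FZD4 rose by 1.5 and FZD7 fell by 1.19. Among secreted antagonists DKK2 was at 9.61, 9.10, 8.93, 8.36 and 8.71 in DED against 5.25 to 6.09 in MSC and rose by 3.22, SFRP1 rose by 2.97, and DKK3, a divergent family member, fell by 1.92. Of 12 mesenchymal transition genes 2 rose and 5 fell (median -0.01, and -0.07 to 0.05 with any 1 array left out). The transcription factors SNAI2 and ZEB1 rose by 0.55 and 0.56 and TCF3 fell by 1.07. N-cadherin, CDH2, was at 10.08, 10.40, 12.58, 11.01 and 10.96 in DED, 9.76 to 10.27 in MA and 13.16 to 13.62 in MSC and fell by 2.36 (SE 0.30, adjusted p = 2.3e-06), with array 3 the highest. Vimentin, VIM, fell by 0.88 and stayed bright in DED.

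Genes of the amino acid response were nearer to the stem cell level in DED than in MA. ATF4 is the transcription factor that raises amino acid synthesis, transport and tRNA charging when amino acids are short or the endoplasmic reticulum is stressed, through C/EBP-ATF response elements. Of 32 ATF4 effectors and amino acid supply genes 9 rose and 4 fell, with a median of 0.17 against -1.47 between MA and MSC. The share that passed was 40.6%, against 33.4% of all genes. Without DED array 3 there were 7 falls and the median was -0.03, and without DED array 1 the median was 0.33. The list mean was 10.53 to 10.70 in MSC, 9.04 to 9.11 in MA and 10.29, 10.53, 11.51, 10.92 and 10.81 in DED arrays 1 to 5, and array 3 was the highest. Of 16 cytosolic aminoacyl-tRNA synthetases 3 rose and 3 fell (median -0.08, and -0.15 to -0.06 with any 1 array left out, and -1.07 between MA and MSC). The share of synthetases that passed was 37.5%, near the 33.4% of all genes.

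The letters of this element (TGATGNAA, both strands) were found in the 250 bases before the start of 4 of 26 ATF4 genes (15.4%) and 2 of 14 synthetase genes (14.3%) whose promoter was held, against 3.19% of all promoters and 2.20% of those of measured genes. The 6 stretches are printed, on GRCh38.p14 from RefSeq as above with the motif in capitals, because they carry the letters of the element through which ATF4 acts. CHAC1, FGF21, AARS1 and IARS1 are named for holding the letters and not for the size of their change, and the choice was made after their values had been seen.
ATF3 (chr1:212565194-212565245, plus strand, motif 191 bases before the start): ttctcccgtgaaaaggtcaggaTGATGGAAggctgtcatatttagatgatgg
CHAC1 (chr15:40953240-40953291, plus strand, motif 209 bases before the start): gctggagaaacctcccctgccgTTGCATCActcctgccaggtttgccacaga
ASNS (chr7:97872447-97872498, minus strand, motif 68 bases before the start): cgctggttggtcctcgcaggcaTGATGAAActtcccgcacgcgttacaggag
FGF21 (chr19:48755448-48755499, plus strand, motif 54 bases before the start): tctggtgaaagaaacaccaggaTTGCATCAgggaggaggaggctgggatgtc
AARS1 (chr16:70289664-70289715, minus strand, motif 187 bases before the start): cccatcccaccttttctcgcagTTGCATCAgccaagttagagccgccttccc
IARS1 (chr9:92293698-92293732, minus strand, motif 13 bases before the start): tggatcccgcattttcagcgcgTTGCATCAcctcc

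ASNS, asparagine synthetase, was at 12.97, 13.02, 13.22, 13.13 and 12.93 in MSC, 10.12 to 10.35 in MA and 12.74, 12.87, 13.89, 13.19 and 13.17 in DED. DED and MSC overlapped, array 3 was the highest, and the difference was 0.12 (SE 0.16, adjusted p = 0.64) with a 95% interval of -0.22 to 0.45. CHAC1, which degrades glutathione, was at 9.06, 9.25, 12.08, 10.69 and 10.55 in DED and 9.67 to 10.57 in MSC, with an interval of -0.47 to 1.17. AARS1 and IARS1, which charge the alanine and isoleucine tRNAs, had intervals of -0.19 to 0.20 and -0.45 to 0.05 around levels in MSC of 15.19 to 15.31 and 12.74 to 13.11, and MA stood lower at 13.89 to 14.15 and 10.88 to 11.36. FGF21, a stress hormone, was near the control median in all groups. Some members were above the stem cells. ATF3, a stress-induced factor, was at 7.08 to 7.66 in MSC and 9.05 to 9.97 in DED and rose by 1.94 (SE 0.18, adjusted p = 2.5e-08). The stress cytokine GDF15, dim in 4 of 5 DED arrays, rose by 1.61 and DDIT4, an inhibitor of the growth kinase mTORC1, by 1.04. PHGDH, the first enzyme of serine synthesis, fell by 0.69 (SE 0.16, adjusted p = 0.0015), and the proline synthesis enzymes PYCR1 and ALDH18A1 by 1.26 and 0.52. Among synthetases YARS1 rose by 0.40, and FARSB and EPRS1 fell by 0.47 and 0.31. Only 1 rise passed without any 1 of MSC arrays 2, 3 and 5 and DED arrays 3, 4 and 5.

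Over chaperones of the endoplasmic reticulum the list mean was 11.66 to 11.76 in MSC, 10.96 to 11.03 in MA and 11.05, 11.44, 11.59, 11.50 and 11.44 in DED arrays 1 to 5, so DED lay between the other groups, with array 1 close to MA. Of 25 chaperone and unfolded protein response genes 9 fell and 4 rose (median -0.26, -0.09 without DED array 1 and -0.17 without MSC array 1, and -0.77 between MA and MSC). SDF2L1, CRELD2 and PDIA6 fell by 1.70, 1.68 and 1.52, and the lectin chaperone CALR by 1.45. The sensor ERN1 (IRE1) was at 10.30, 10.93, 12.48, 11.48 and 11.38 in DED and 9.79 to 10.32 in MSC and rose by 1.19 (SE 0.26, adjusted p = 0.001). Array 3 was its highest array and array 1 lay within the MSC range. The sensor ATF6 rose by 0.47 and the oxidase ERO1B by 0.82.

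**Figure D5:**
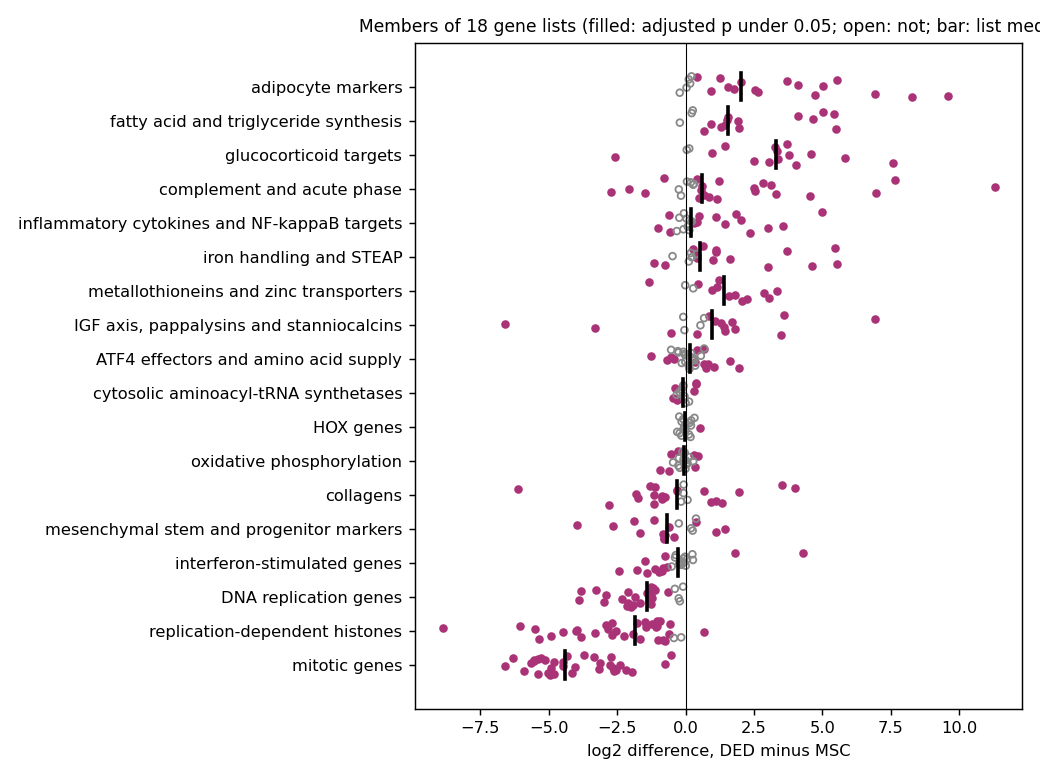
Log2 difference of DED minus MSC (x axis) for each measured member of 18 gene lists (y axis); filled points had an adjusted p under 0.05, open points did not, and black bars are list medians. Glucocorticoid targets and adipocyte markers have the highest medians, 3.32 and 2.04, mitotic genes the lowest, -4.41, and the ATF4, synthetase and HOX lists lie around 0.

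More inflammatory genes were above the stem cell level than below it. Of 24 inflammatory genes (cytokines and targets of NF-kappaB) 11 rose and 3 fell (median 0.18, and 0.30 without DED array 1). By their means 15 of the 24 were dim in both groups. The list mean was 7.71 to 7.85 in MSC, 7.69 to 7.94 in MA and 8.49 to 8.67 in DED, so the DED arrays lay above both groups. CSF1, the growth factor of macrophages, was at 12.92 to 13.32 in MSC, 15.39 to 15.68 in MA and 16.44, 16.68, 16.95, 16.72 and 16.81 in DED, a rise of 3.54 (SE 0.12, adjusted p = 2.9e-15). PTX3, a secreted pattern recognition protein, rose by 4.97 (SE 0.24, adjusted p = 1.1e-12) and the lymphocyte cytokine IL7 by 3.01 (SE 0.21, adjusted p = 3.1e-10). IL6 was at 4.74, 5.35, 5.28, 5.42 and 5.61 in MSC, 4.72 to 5.23 in MA and 7.49, 7.93, 7.46, 7.60 and 7.76 in DED and rose by 2.37 (SE 0.15, adjusted p = 9.9e-11), but stayed dim. IL15, dim in both groups, fell by 1.01, the 1 fall left without DED array 2.

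Of 20 chemokines 7 rose and the other 13 did not pass, and 16 were dim in both groups. Without DED array 2 there were 2 falls, and 1 without any 1 of MSC arrays 2 and 3 and DED arrays 1 and 4. CCL2, which draws monocytes, was at 7.99 to 8.57 in MSC, 7.24 to 7.73 in MA and 9.41, 10.26, 10.33, 9.89 and 10.07 in DED and rose by 1.61 (SE 0.16, adjusted p = 8.6e-08). The neutrophil-attracting CXCL5, CXCL6 and CXCL8 rose by 2.10 (SE 0.23, adjusted p = 2.3e-07), 2.20 (SE 0.27, adjusted p = 1.2e-06) and 1.46 (SE 0.18, adjusted p = 1.5e-06), and CXCL6 and CXCL8 stayed dim by their means, at 7.21 to 9.04 and 7.26 to 8.32. ACKR1, a receptor that binds many chemokines without signalling, was at 4.41 to 5.55 in MSC, 5.53 to 6.12 in MA and 9.57, 10.14, 10.43, 9.26 and 9.34 in DED.

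Of 27 complement and acute phase genes 17 rose and 4 fell (median 0.59). C7, of the membrane attack complex, was at 3.45 to 3.98 in MSC, 12.52 to 13.17 in MA and 11.92, 11.25, 8.79, 10.62 and 10.83 in DED, with array 3 the lowest of DED, and rose by 6.94 (SE 0.36, adjusted p = 3.7e-12). CD59, which protects cells from that complex, was at 13.94 to 13.99 in MSC and 11.43 to 12.35 in DED and fell by 2.08 (SE 0.14, adjusted p = 1.2e-10). The complement factors CFI and CFB fell by 2.74 and 1.47.

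Among interferon-stimulated and antigen presentation genes more fell than rose. Of 26 interferon-stimulated genes 10 fell and 2 rose (median -0.29). IFI6 was at 10.24 to 11.75 in MSC, 9.66 to 9.91 in MA and 7.94 to 8.80 in DED, a fall of 2.44 (SE 0.22, adjusted p = 2e-08), and IFI27 and XAF1 fell by 1.79 and 1.47. SAMHD1, a nucleotide hydrolase that limits viral replication, rose by 4.28 (SE 0.18, adjusted p = 1.1e-13), and the membrane protein IFITM1 by 1.81 (SE 0.19, adjusted p = 1.7e-07). Of 16 genes of MHC class I presentation 9 fell and 1 rose (median -0.50). The immunoproteasome subunit PSMB9 fell by 1.66 (SE 0.16, adjusted p = 3.5e-08) and PDIA3, of the peptide-loading complex, by 1.35 (SE 0.12, adjusted p = 1e-08). HLA-E, which presents leader peptides to natural killer cells, rose by 0.53 (SE 0.17, adjusted p = 0.021), with adjusted p = 0.055, 0.071 and 0.053 without MSC array 2, MSC array 3 and DED array 2.

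Targets of the glucocorticoid receptor had the highest median of all 49 lists. Of 16 targets 13 rose and 1 fell (median 3.32, and 2.38 between MA and MSC), and the list mean was 7.96 to 8.09 in MSC, 10.59 to 10.69 in MA and 10.67 to 11.02 in DED. TSC22D3 (GILZ), which mediates anti-inflammatory effects of glucocorticoids, was at 9.36, 9.97, 9.64, 9.48 and 9.24 in MSC, 13.28 to 13.59 in MA and 13.48, 13.31, 14.04, 13.52 and 13.42 in DED, a rise of 4.02 (SE 0.15, adjusted p = 1.5e-14). The monoamine oxidase MAOA rose by 5.84 (SE 0.13, adjusted p = 2.1e-17) and the glutamine synthetase GLUL by 4.58 (SE 0.14, adjusted p = 9.8e-16). The member that fell was the kinase SGK1, by 2.58 (SE 0.21, adjusted p = 3e-09). HSD11B1, which makes active cortisol from cortisone inside cells, was at 6.44 to 6.85 in MSC, 9.80 to 10.16 in MA and 10.33, 10.59, 9.62, 10.47 and 10.83 in DED.

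Of 24 genes of steroid metabolism 9 rose and 3 fell (median 0.22, and 0.13 to 0.26 with any 1 array left out). CYP19A1, the aromatase that makes oestrogens, was at 5.74, 6.13, 6.13, 6.20 and 6.28 in MSC, 6.91, 6.56, 7.07, 6.28 and 7.25 in MA and 10.86, 11.31, 11.38, 11.59 and 11.97 in DED. It was dim in both other groups and rose by 5.33 (SE 0.19, adjusted p = 1.3e-14). CYP7B1, which hydroxylates oxysterols and DHEA, rose by 2.90 (SE 0.21, adjusted p = 7.3e-10), while HSD17B2 and HSD17B10 fell by 0.51 and 0.58.

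In the IGF axis 11 of 18 genes rose and 3 fell (median 0.96). The ligand IGF1 was at 7.44 to 8.35 in MSC, 10.42 to 10.86 in MA and 11.79, 11.44, 10.49, 11.08 and 11.90 in DED and rose by 3.49 (SE 0.22, adjusted p = 6.1e-11), while its receptor IGF1R fell by 0.55. The binding protein IGFBP6 was at 14.14, 14.05, 14.05, 13.93 and 13.89 in MSC, 12.56 to 12.88 in MA and 7.65, 7.17, 7.37, 7.51 and 7.33 in DED, a fall of 6.61 (SE 0.11, adjusted p = 1.1e-19). IGFBP3, the main carrier in plasma, fell by 3.30 (SE 0.22, adjusted p = 2.3e-10), with MA at 15.59 to 15.83. STC1, an inhibitor of the protease that frees IGF from a binding protein, was at 8.44 to 10.25 in MSC, 12.54 to 13.27 in MA and 15.18, 16.10, 15.89, 16.36 and 16.31 in DED. Both binding proteins were lower in every DED array than in any MSC or MA array.

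Most iron and metal genes rose as well. Of 20 genes of iron handling and the STEAP family 13 rose and 2 fell (median 0.52, and 0.40 between MA and MSC). STEAP proteins reduce iron and copper at membranes. STEAP2 was at 10.65 to 11.06 in MSC, 10.45 to 10.73 in MA and 15.35, 15.92, 14.72, 15.69 and 15.72 in DED, a rise of 4.64 (SE 0.17, adjusted p = 1.6e-14). STEAP4 was at 12.01, 11.78, 8.32, 10.43 and 10.58 in DED, with array 3 the lowest, against 4.59 to 5.34 in MSC and 5.35 to 5.72 in MA, and rose by 5.55 (SE 0.44, adjusted p = 3.1e-09). CD163, the scavenger receptor of haemoglobin known from macrophages, was at 10.89, 11.78, 10.98, 12.09 and 12.47 in DED, 6.34 to 7.10 in MA and 5.99 to 6.69 in MSC. STEAP3 and the transferrin receptor TFRC fell by 0.75 and 1.15. Of 14 metallothioneins and zinc transporters 11 rose and 1 fell (median 1.40). MT1X rose by 3.36 (SE 0.24, adjusted p = 5.8e-10), MT1F by 3.05 and MT1M by 2.86. Metallothionein genes are near-identical copies, so single members are uncertain. The zinc importer SLC39A10 fell by 1.34.

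Of 26 antioxidant and NRF2 target genes 13 rose and 3 fell (median 0.39). GPX3 was at 6.52 to 8.19 in MSC, 13.19 to 13.73 in MA and 15.33, 14.99, 12.64, 14.33 and 14.57 in DED, with array 3 the lowest, and the extracellular superoxide dismutase SOD3 rose by 4.31 (SE 0.29, adjusted p = 1.8e-10). The thioredoxin reductase TXNRD1 was highest in array 3, at 15.25, and rose by 2.16 (SE 0.22, adjusted p = 1.4e-07). PRDX1, GPX4 and AKR1B10 fell by 0.55, 0.48 and 0.64. Of 18 hypoxia response genes 7 rose and 3 fell (median 0.19, and 0.10 to 0.28 with any 1 array left out). ADM, the vessel-dilating peptide adrenomedullin, was at 9.30 to 10.05 in MSC, 14.65 to 14.99 in MA and 15.33 to 15.90 in DED, a rise of 5.91 (SE 0.14, adjusted p = 5.1e-17). HILPDA, a lipid droplet protein induced by low oxygen, rose by 1.04, and the oxidase ERO1A fell by 0.47.

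Among lipid mediators 8 of 21 genes of prostaglandin synthesis, breakdown and reception rose and 4 fell (median -0.08, and -0.07 to -0.01 with any 1 array left out). The secreted phospholipase PLA2G2A rose by 3.54 (SE 0.34, adjusted p = 4.6e-08), and the receptors PTGFR and PTGER2 by 2.25 and 1.99. The exporter ABCC4 fell by 1.5 and the prostacyclin synthase PTGIS by 0.55. For hyaluronan 4 of 18 genes rose and 5 fell (median 0.04, and -0.02 to 0.10 with any 1 array left out). HAS2, which makes hyaluronan, was at 10.49 to 11.08 in MSC, 7.47 to 7.85 in MA and 8.38, 8.28, 9.09, 7.88 and 8.30 in DED and fell by 2.36 (SE 0.17, adjusted p = 6.2e-10). CEMIP, which breaks it down, was at 7.33 to 7.59 in MSC, 4.98 to 5.80 in MA and 11.58, 12.15, 11.11, 11.93 and 12 in DED and rose by 4.27 (SE 0.18, adjusted p = 9.2e-14). ITIH5 and HAPLN3, dim in both groups, rose by 2.17 and 1.77, and the receptor HMMR, also a mitotic gene, fell by 2.71.

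Of 23 AP-1 and immediate early genes 9 rose and 5 fell (median 0.13, and 0.09 to 0.21 with any 1 array left out). JUN was at 9.91 to 10.35 in MSC, 8.13 to 8.69 in MA and 6.83 to 7.41 in DED, a fall of 3.04 (SE 0.14, adjusted p = 9.2e-13), and the clock-linked repressor BHLHE40 fell by 3.43 (SE 0.13, adjusted p = 4.5e-14). FOSL1 was at 8.59, 9.07, 11.78, 9.99 and 10.08 in DED and 10.82 to 11.84 in MSC, a fall of 1.47 (SE 0.39, adjusted p = 0.005), and array 3 lay within the MSC range. The orphan receptor NR4A3 rose by 3.42 (SE 0.19, adjusted p = 9.4e-12) and the phosphatase DUSP1 by 3.05. Of 30 EGF family members and stromal growth factors 7 rose and 9 fell (median 0.03, and 0.01 to 0.07 with any 1 array left out). FGF7, a growth factor for epithelia, was at 10.47 to 11.75 in MSC, 12.92 to 13.42 in MA and 14.78, 15.21, 14.55, 15.10 and 14.97 in DED, a rise of 3.72 (SE 0.19, adjusted p = 2.6e-12). ANGPT1, which stabilises vessels, rose from background by 5.40 (SE 0.20, adjusted p = 1.7e-14) and PDGFD by 3.06, while PDGFC and FGF5 fell by 2.56 and 1.05. Of 28 lysosome and autophagy genes 3 rose and 10 fell (median -0.08). The autophagy gene GABARAPL1 rose by 2.10 (SE 0.12, adjusted p = 2.6e-11) and WIPI1 by 0.61, while the cathepsins CTSS, CTSA and CTSD fell by 1.38, 1.26 and 0.84.

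Several genes lay near the stem cell level in DED although MA differed from it. They were chosen as the 8 largest differences of MA from MSC in each direction whose 95% interval of DED minus MSC lay within 0.5 either side of 0, so their position is a description. TNFAIP6, a hyaluronan-binding protein that dampens inflammation, was at 13.25, 13.51, 13.50, 13.59 and 13.36 in MSC, 8.11 to 8.61 in MA and 12.52, 13.23, 13.93, 13.69 and 14.02 in DED. SCRG1, a gene of stromal and cartilage precursors, was at 11.29 to 11.82, 7.43 to 7.93 and 11.32 to 12.11 in the same order, and the collagen receptor ITGA11 at 9.97 to 10.14, 6.48 to 7.49 and 9.27 to 10.67. The DED and MSC arrays overlapped in all 3. The vitamin D receptor VDR, the dioxin-inducible CYP1B1, the interferon-related SLFN5, the TGF-beta repressor SKIL and ASNS had the same pattern. Among those high in MA, the sterol enzyme MVD was at 9.16 to 9.85 in MSC, 12.60 to 12.89 in MA and 9.14 to 10.02 in DED, the small heat shock protein HSPB6 at 12 to 12.32, 14.25 to 14.53 and 11.67 to 12.76, and the lysosomal acid lipase LIPA at 10.75 to 11.08, 12.70 to 13.02 and 10.24 to 11.50. ARHGAP20, ARHGDIB (which passed as lower in DED, adjusted p = 0.023, without DED array 1), ECHDC1, tissue factor F3 and the muscle phosphorylase PYGM completed them. By their means ARHGAP20, ARHGDIB, F3 and PYGM were dim in both DED and MSC. For these genes closeness to MSC depends on the background and shows no shared level.

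Others lay near the adipocyte level. By the same rule with the interval of DED minus MA, the rises were led by ZBTB16, CHRDL1, SVEP1, GLUL, TSC22D3, PTH1R, KLF15 and NFIL3, and the falls by PI16, ADD2, ANK3, TRIM59, CCIN, TGFB3, PEAR1 and CNIH3. CHRDL1 was at 8.0 to 8.35 in MSC, 14.81 to 14.93 in MA and 14.60 to 15.28 in DED, and SVEP1, a large adhesion protein of the matrix, at 10.50 to 11.88, 16.20 to 16.41 and 15.84 to 16.60. The repressor NFIL3 was at 9.58 to 9.87, 12.69 to 13 and 12.94 to 13.18. Of the 8 rising genes ZBTB16, GLUL, TSC22D3 and KLF15 belong to the glucocorticoid list. That list was chosen with results of these data known and the 8 genes by their values, so this overlap is only a description. The membrane skeleton proteins ADD2 and ANK3 fell by 3.66 and 3.32 relative to MSC, and the parathyroid hormone receptor PTH1R rose by 3.43. All of the falls but TRIM59 ended dim in DED by their means. ADD2, ANK3, CCIN and CNIH3 were dim in MA as well, with means of 6.48, 5.72, 4.70 and 6.48. For such genes closeness to MA depends on the background and shows no shared level.

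A further set lay beyond both groups, chosen as the 8 genes highest and the 8 lowest in DED relative to the nearer of MSC and MA, with all 5 DED arrays beyond the 10 others. The high ones were IL1RL1, STEAP4, CD163, STEAP2, CYP19A1, CEMIP, ACKR1 and TNFRSF11B. TNFRSF11B, osteoprotegerin, the decoy receptor of the bone-resorbing ligand RANKL, was at 9.30, 8.70, 9.14, 9.24 and 9.17 in MSC, 7.85 to 8.67 in MA and 12.06, 12.50, 13.48, 12.95 and 12.78 in DED. The low ones were H2BC14, IGFBP6, DLGAP5, KIF20A, H3C2, PRG4, ANLN and CLDN11. PRG4 was at 11.55 to 12.47 in MSC, 9.12 to 9.61 in MA and 5.0 to 6.13 in DED. The tight junction protein CLDN11 was at 12.95, 12.81, 12.59, 12.78 and 12.93 in MSC, 12.74 to 13.30 in MA and 9.33, 9.42, 9.93, 9.14 and 8.97 in DED.

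Positional and lineage markers were checked against the labels. Of 17 measured HOX genes, which keep a record of body position, only HOXC8 passed, a rise of 0.53 (SE 0.15, adjusted p = 0.01), and the list mean was 6.54 to 6.64 in MSC and 6.54 to 6.71 in DED; 13 of the 17 were dim in both groups. There was 1 fall without MSC array 4, MSC array 5 or DED array 3. Among 16 epithelial and carcinoma markers, of which MDA-MB-231 is known to carry few, ESRP1 passed with a rise of 0.48 (SE 0.14, adjusted p = 0.008) under the control median. EPCAM and CDH1, named for their role as defining markers after their values had been seen, were at 4.05 to 4.60 and 3.94 to 4.90 in DED. The list mean was 5.67 to 5.80 in MSC and 5.71 to 5.87 in DED, and 14 members were dim in both groups.

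Of 16 macrophage markers 3 rose, CD163, CD14 by 1.40 and the scavenger receptor MARCO by 0.98, and 13 were dim in both groups. There was 1 fall without DED array 1 or 4. PTPRC (CD45), common to all leukocytes and named for that role, was at 5.55 to 6.08 in DED and 5.20 to 6.16 in MSC. Of 12 endothelial markers EMCN rose by 0.88, with 2 rises without any 1 of MSC array 1 and DED arrays 1, 3 and 4, and TEK, the angiopoietin receptor, was at 10.55 to 10.80 in MSC and 5.91 to 7.24 in DED, a fall of 4.38 (SE 0.19, adjusted p = 1.9e-13), while PECAM1 was at 4.49 to 4.96 in DED. Of 9 pericyte and smooth muscle markers 3 rose and 1 fell (median 0.21, and 0.11 to 0.25 with any 1 array left out), with LMOD1 up by 0.77 and 1 rise left without MSC array 5 or DED array 5. By their means 7 of these 9 markers and 10 of the 12 endothelial markers were dim in both groups. The labelled stem cells carried bright NT5E, THY1 and ENG, and their mean over the adipocyte markers was dim, at 5.77 to 5.96. In the cells labelled as dedifferentiated adipocytes ADIPOQ, FABP4 and PLIN1 were above the control percentile in every array. Of the 21 measured adipocyte markers, however, 10 were dim in both DED and MSC by their means, and 5 did not pass.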

How the data were processed

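The authors deposited log2 intensity values in 1 table for 15 arrays, for which RMA and the Transcriptome Analysis Console are named per the submitters' processing notes. The usual RMA corrects background, normalizes between arrays and summarises probes; its variant, the versions and the build are not stated in the sources used here. From 24351 probe sets, 17709 with 1 gene symbol were kept; for 20 genes with several, the brightest was used, leaving 17687 genes with no filter on dim ones. DED, MSC and MA were fitted together with limma 3.58.1 in R 4.3.3 (1 mean a group, no covariates), two-sided, with Benjamini-Hochberg adjustment over all genes. SEs and 95% intervals are those of the moderated fit. The same fit was run on simulated data with known changes, normal noise and 1 spread per gene for all groups. That run does not cover outlying arrays or the larger spread of the DED arrays. The number of arrays limits the precision.

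The members and the 49 gene lists (1085 genes, 977 measured) were chosen with earlier results of these data known. Genes were named by rule, and fewer are named than it takes: the 15 largest rises and falls, up to 3 rises and 3 falls a list, 30 fixed genes, and the sets of 8 described in the text. AARS1, CHAC1, FGF21, IARS1, CDH1, EPCAM, PECAM1 and PTPRC are named outside it, after their values were seen. Motifs were searched in RefSeq promoters matched by symbol. Alternatives were a fit of 10 arrays, quantile normalization, median shift, single probe sets, intensity trend with robust fit, array weights, the replicate block and arrays left out. A further alternative left out genes under the 25th percentile of mean intensity. Figures were drawn with matplotlib 3.10.9.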

Additional observations from a re-analysis of the deposited data

Results flagged for a closer look

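A single array that lay far from the other 4 of its group, by Dixon's criterion, was found in 80 of 957 groups of 5 values, taken over the genes and lists described here in MSC, MA and DED. About 1 in 20 groups would be picked out by chance. MSC array 2 was the array apart in 20 of these groups, DED array 3 in 19, DED array 1 in 14, and no other array in more than 5. Values below are log2 intensities of that array, for genes and for means over a list.

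The highest value of its group was that of DED array 3 for ACTA2 (14.70), ADAMTS9 (8.09), ALPL (9.93), CDKN1A (12.25), CNN1 (9.23), MDM2 (11.71) and MGLL (10.12). The highest value of its group was also that of DED array 3 for TAGLN (15.39), TEK (7.24), TGFBI (8.66), TSC22D3 (14.04) and the mean of contractile and SRF-YAP target genes (11.10). For HLA-E (9.32), MT1M (11.24), PDGFRA (15.79), PTGFR (12.40), PTGIS (12.59), SOD3 (8.34) and the mean of metallothioneins and zinc transporters (10.29), DED array 3 was the lowest of its group.

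The highest value of its group was that of DED array 1 for CEBPA (5.78), CHRDL1 (15.28), CIDEC (14.71), GLUL (17.09), GPD1 (10.91), IGFBP3 (13.51) and PDK4 (8.42). The highest value of its group was also that of DED array 1 for PLIN1 (10.90), THY1 (13.39), the mean of adipocyte markers (9.48) and the mean of fatty acid and triglyceride synthesis (12.75). For FGF5 (5.37), PDIA3 (11.49) and the mean of endoplasmic reticulum chaperones and unfolded protein response (11.05), DED array 1 was the lowest of its group. For LGR4 (5.29), DED array 2 was the lowest of its group. For ABCC4 (6.93), DED array 4 was the lowest of its group. For ENG (12.07) and PPARG (8.52), DED array 5 was the lowest of its group.

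The highest value of its group was that of MSC array 2 for CNN1 (10.90), ESRP1 (4.36), NDUFB8 (14.28), PDIA3 (13.45), PMVK (8.06), PNPLA2 (4.91) and STC1 (10.25). The highest value of its group was also that of MSC array 2 for TPM1 (14.48), the mean of contractile and SRF-YAP target genes (10.78) and the mean of oxidative phosphorylation (12.38). The lowest value of its group was that of MSC array 2 for ALPL (5.63), COL14A1 (11.27), CTSD (14.86), FZD4 (8.87), IGFBP3 (15.23), MGLL (10.35) and NT5E (13.64). The lowest value of its group was also that of MSC array 2 for PRG4 (11.55), TNFRSF11B (8.70) and the mean of lysosome and autophagy (9.99). For RBL1 (9.36), MSC array 1 was the highest of its group. For CYP19A1 (5.74), MSC array 1 was the lowest of its group. For CD163 (6.69), MSC array 3 was the highest of its group. For FARSB (12.77) and PKM (12.23), MSC array 3 was the lowest of its group. For ACACB (6.60) and TGFBR1 (8.74), MSC array 4 was the highest of its group. For TGFBI (16.46), MSC array 5 was the highest of its group.

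For CPM (14.06) and CTSA (13.16), MA array 1 was the highest of its group. For ID3 (6.18), MA array 1 was the lowest of its group. For DDIT4 (10.26), F3 (8.15), NES (5.33) and NRCAM (13.86), MA array 3 was the lowest of its group. For PDGFRA (16.32), PFKP (12.88) and the mean of glycolysis (10.78), MA array 4 was the highest of its group. For HSD17B10 (10.54) and IL1RL1 (9.70), MA array 4 was the lowest of its group. For KLF15 (9.07), P4HA1 (11.35) and SLC39A10 (9.40), MA array 5 was the highest of its group. What sets these arrays apart was not tested.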

How the results depend on the processing

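The total counts stayed within 1.5 times those reported under all 19 alternatives, from 5450 to 6376 genes past the test, and no named gene past the threshold changed sign. Of the 270 genes described, 265 kept their side of the threshold under every alternative that could be run for them. The exceptions were FN1, HLA-E, SLC2A1, TXNIP and ARHGDIB. With the replicate number as a block 5738 genes passed. No pairing by number was seen, as 0 of 15 pairs of same-numbered arrays had deviations correlated over 0.1. Such a check cannot exclude a pairing with small effects. Another setting left out only genes whose mean over all arrays was under the 25th percentile of genes. Many genes called dim here, under the control percentile, therefore stayed in it. With this cut the root mean square distances were 0.957 for DED and MSC, 0.641 for DED and MA and 0.922 for MA and MSC. The list medians then were 2.59 for adipocyte markers, 0.66 for lipid droplet proteins, -1.89 for DNA replication genes, -2.07 for replication-dependent histones, -0.84 for collagens, -0.45 for matrix proteases and inhibitors, -0.09 for TGF-beta, activin and BMP pathway, 0.30 for Wnt pathway, 0.084 for mesenchymal transition factors, 0.27 for inflammatory cytokines and NF-kappaB targets, 0.21 for chemokines, 1.16 for complement and acute phase, 1.18 for IGF axis, pappalysins and stanniocalcins, 0.20 for prostaglandin synthesis, breakdown and receptors, 0.36 for steroid metabolism, 0.43 for AP-1 and immediate early genes and 0.21 for EGF family and stromal growth factors. Those of the TGF-beta, mesenchymal transition and prostaglandin lists thereby changed sign. Without DED arrays 1 and 3 they were -1.54 for DNA replication genes, 0.24 for cell cycle inhibitors and exit genes, 0.065 for TGF-beta, activin and BMP pathway, 0.28 for inflammatory cytokines and NF-kappaB targets, 0.031 for chemokines and 0.26 for antioxidant and NRF2 targets. With single arrays left out they ran from 0.65 to 0.79 for adipogenic transcription factors, -1.48 to -1.35 for DNA replication genes, 0.083 to 0.48 for cell cycle inhibitors and exit genes, -0.004 to 0.19 for osteoblast markers, -0.39 to -0.27 for collagens, -0.33 to -0.19 for matrix proteases and inhibitors, 0.13 to 0.30 for inflammatory cytokines and NF-kappaB targets, 0.13 to 0.22 for chemokines, -0.27 to -0.091 for endoplasmic reticulum chaperones and unfolded protein response, 0.28 to 0.43 for antioxidant and NRF2 targets, 0.71 to 1.08 for IGF axis, pappalysins and stanniocalcins and 0.11 to 0.25 for pericyte and smooth muscle markers. The other medians moved by less than the spread of the list mean between arrays. Precision is limited by 5 arrays a group and, for dim genes, by background, since RMA values near the negative controls hold little signal.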
